A study of Mus musculus with 6 samples.

Results

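The genes described here are 31 type I interferon-stimulated genes, picked by symbol from a table of 54232 mouse genes and grouped into the OAS, IFIT and MX families, the STAT/IRF factors, the sensors of nucleic acids, the ISG15 system, other antiviral effectors and 1 chemokine. They were measured by RNA-seq in Treg cells (regulatory T cells, a CD4 lineage that restrains immune responses), isolated from mouse spleen by a GFP signal. The series has 3 libraries of wild-type mice (WT 1 to 3) and 3 of mice with a conventional knockout of BAF60b (KO 1 to 3). Smarcd2 encodes BAF60b, which belongs to the SWI/SNF (BAF) family of chromatin remodellers. A conventional knockout affects every cell of the animal, so effects within Treg cells and effects of other cells on them cannot be told apart in these libraries. The sources used here give neither the driver of the GFP reporter and the deleted exons nor the strain, age and sex of the mice. Whether each library is a different mouse is not in the labels, so the p-values reflect no more than the variation among these 6 libraries, which may in part be technical.

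Type I interferons bind a receptor made of IFNAR1 and IFNAR2, which activates the kinases JAK1 and TYK2. Their signal reaches the nucleus through the complex ISGF3, which contains STAT2 and IRF9 and binds a DNA element called the interferon-stimulated response element (ISRE). The genes that follow encode antiviral enzymes and RNA-binding proteins, and a low level of many of them is present in immune cells of uninfected animals. Type II interferon signals through another element, the gamma-activated sequence (GAS).

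Promoter windows of RefSeq (build GRCm38.p6, 250 bases before to 50 bases after the gene start) were matched for 23 of the 31 genes. Some genes had several windows, and a match in any of them counted for the gene. An ISRE-like pattern, searched on both strands, was spelled GAAA, any 2 bases and GAAA again. It was present for 14 of these 23 genes (60.9%), against 3.99% of all 27025 genes with a window. The letters TTCNNNGAA, a GAS-like pattern that reads alike on both strands, were present for 4 of the 23 genes (17.4%) against 9.55% of all genes with a window. The following stretches, printed 5′ to 3′ on the strand of the gene with the ISRE-like letters in capitals, belong to genes on which the results turn: Oas3 and Rsad2 were lower in KO, Ifit1, Isg15 and Stat2 did not pass the test, and Oas1a had a higher mean in KO without passing it.
Oas3, chr5:120777700-120777759, minus strand: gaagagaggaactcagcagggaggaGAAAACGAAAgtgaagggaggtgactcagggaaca
Rsad2, chr12:26456538-26456597, minus strand: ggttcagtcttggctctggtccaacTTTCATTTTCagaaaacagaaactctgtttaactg
Ifit1, chr19:34640760-34640838, plus strand: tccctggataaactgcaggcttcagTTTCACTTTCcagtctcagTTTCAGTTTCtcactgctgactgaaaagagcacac
Isg15, chr4:156200850-156200921, minus strand: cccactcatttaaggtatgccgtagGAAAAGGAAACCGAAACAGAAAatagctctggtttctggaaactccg
Oas1a, chr5:120907526-120907570, minus strand: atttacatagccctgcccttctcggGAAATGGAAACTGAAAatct
Stat2, chr10:128270251-128270310, plus strand: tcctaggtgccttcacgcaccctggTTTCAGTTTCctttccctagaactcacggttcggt
The capitals of Ifit1 hold 2 separate matches, and those of Isg15 and Oas1a hold 3 and 2 overlapping ones. The stretch with 2 matches in Ifit3 has the same 94 bases as that in Ifit3b, a neighbouring gene of near-identical sequence. Of the 5 genes lower in KO that had a window, 2 held the ISRE-like letters (Oas3 and Rsad2), and Isg20 and Ifit2 held the GAS-like letters. Of the 18 genes with a window that did not pass the test, 12 held the ISRE-like letters. A match is a description of these letters, not a measured binding site.

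The targeted gene was measured first. Smarcd2 had 205.3, 198.4 and 189.2 CPM (read count scaled to library size) in WT 1 to 3 and 57.5, 58.4 and 59.3 CPM in KO 1 to 3, a log2 fold change of -1.77 ± 0.05 (SE) with an adjusted p of 6.77e-08. Libraries held between 18167053 and 22502804 reads. The Treg markers Foxp3 (means of 555 CPM in WT and 598 in KO, n = 3 each), Il2ra, Ctla4 and Cd4 were abundant in every library, and none of these 4 passed the test. Of the 7 genes in the Treg marker list, 1 passed: Ikzf2, the factor Helios, had means of 662 CPM in WT and 891 in KO and rose by 0.42 on the log2 scale (adjusted p = 0.00527). Reads of Y-linked genes were present in 4 libraries and absent from WT 1 and KO 2, so both genotypes held libraries with and without them. Xist, transcribed from the inactive X of female cells, had 455, 254 and 128 CPM in WT 1 to 3 and 87.6, 441 and 0 CPM in KO 1 to 3, so WT 2, WT 3 and KO 1 held both Y-linked reads and Xist. Whether these libraries pool mice of both sexes is not in the labels. A fit without WT 1 and KO 2 is given beside the calls it ends.

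Of the 31 interferon-stimulated genes, 7 fell in KO, none passed the test as higher, and 24 did not pass. The 7 were Oas2 and Oas3, which make the second messenger that activates RNase L, Ifit2, which binds viral RNA, Mx1, a dynamin-like GTPase that blocks viruses, Rsad2 (viperin) and Cmpk2, which act on nucleotides, and Isg20, an exonuclease. Their log2 fold changes (KO minus WT) lay between -0.91 and -0.22. Across all 13602 genes tested, 6.45% were called at an adjusted p under 0.05 by edgeR's quasi-likelihood test, 3.20% lower and 3.25% higher. An unadjusted p under 0.05 was found for 16 of the 31 genes and for 2780 of the 13602. For the higher direction, where edgeR called none of the 31, 2 had an unadjusted p under 0.05, DESeq2 called 1 and limma-voom called 0. The log2 fold change was under 0 for 25 of the 31 genes, against 48.9% of all genes tested, and its median was -0.23, against 0.0040 over all genes. After TMM scaling the genotypes did not overlap for 9 genes, all lower in KO (the 7, Mx2 and Irf7), against 13.0% of all genes not overlapping in that direction and 12.6% in the other. Where fewer transcripts per cell and fewer cells carrying them would give the same bulk level, they cannot be told apart here.

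**Figure D1:**
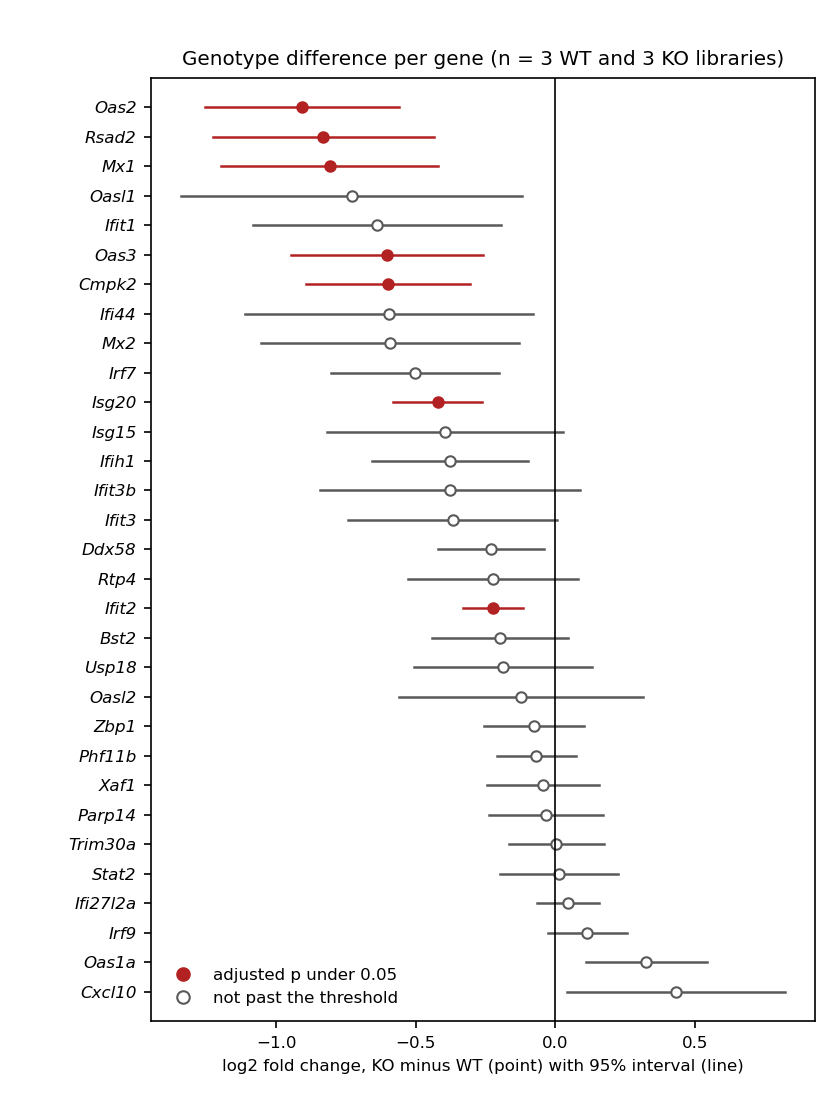
Log2 fold change (KO minus WT) of each of the 31 genes as a point with its 95% interval as a line, from 3 WT and 3 KO libraries. Filled points mark the 7 genes with an adjusted p under 0.05, all left of 0, from -0.91 for Oas2 to -0.22 for Ifit2, while Oas1a and Cxcl10 have intervals right of 0 but did not pass after adjustment.

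The OAS family, which senses double-stranded RNA, held the gene with the largest fall among the 31 and also a gene whose mean was higher in KO. Oas2 (ENSMUSG00000032690, mm10 chr5:120730333-120749853, minus strand) had 17.4, 21.8 and 14.0 CPM in WT 1 to 3 and 10.3, 8.57 and 9.60 CPM in KO 1 to 3. Every KO library was below every WT library, and the KO values were close together (9.50 ± 0.885 CPM, SD, n = 3) while the WT values were spread (17.7 ± 3.91 CPM). The log2 fold change of Oas2 was -0.91 ± 0.16 (SE; adjusted p = 0.00871). Oas2 kept its call with any 1 library left out, with adjusted p up to 0.0418, and lost it without the 2 libraries lacking Y-linked reads (-0.86, adjusted p = 0.0924).

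Oas3 (ENSMUSG00000032661, chr5:120753098-120777661, minus strand), whose start lies 27.8 kb from that of Oas2, had 68.6, 88.0 and 59.3 CPM in WT 1 to 3 and 57.3, 46.0 and 40.1 CPM in KO 1 to 3. The lowest WT and highest KO values nearly met. Its log2 fold change was -0.60 ± 0.15 (SE; adjusted p = 0.0466). This call was near the threshold and was lost under 11 of 20 alternatives, among them library-size scaling (adjusted p = 0.0510), DESeq2 (0.0978) and leaving out WT 1, WT 2, KO 2 or KO 3 (up to 0.168, without WT 2). Without both WT 1 and KO 2 it was 0.219.

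Oas1a, whose start lies 129.9 kb from that of Oas3, encodes an enzyme of the same kind and did not fall. It had 35.5, 41.1 and 31.8 CPM in WT 1 to 3 and 47.2, 48.4 and 41.5 CPM in KO 1 to 3, so that the highest WT and lowest KO libraries were almost level. Its log2 fold change was 0.33, with a 95% interval from 0.11 to 0.54 and an adjusted p of 0.0808. The call changed with the analysis: DESeq2 called Oas1a higher (adjusted p = 0.0282), as did a fit with the Y-linked share as a covariate (0.0433) and fits without WT 2 (0.0497) or KO 3 (0.0377). Of the 50-base words of Oas1a, 57.6% also occur in Oas1g, which had between 0 and 0.258 CPM, so its count depends on how shared reads were assigned. The other Oas1 genes with enough reads, Oas1b and Oas1c, had log2 fold changes of 0.30 (adjusted p = 0.117) and 0.21 (0.298).

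The OAS-like genes did not pass the test. Oasl1, known as a translational brake on Irf7, had 13.5, 19.5 and 11.3 CPM in WT 1 to 3 and 13.3, 6.61 and 7.11 CPM in KO 1 to 3. Only KO 1 reached the WT range, and the log2 fold change was -0.73 with a 95% interval from -1.34 to -0.12 (adjusted p = 0.166). Without KO 1, Oasl1 had a log2 fold change of -1.13 and was called lower (adjusted p = 0.0208). Oasl2 had a log2 fold change of -0.12 with an interval from -0.56 to 0.32 (adjusted p = 0.791), and its KO libraries all lay within the WT range.

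The IFIT family, proteins that bind foreign RNA through tetratricopeptide repeats, had 1 called gene and 4 log2 fold changes under 0. Ifit2 (ENSMUSG00000045932, chr19:34550694-34576419, plus strand) had 101, 105 and 99.5 CPM in WT 1 to 3 and 89.2, 85.6 and 88.3 CPM in KO 1 to 3. The fall was small, -0.22 ± 0.05 (SE) on the log2 scale, and both genotypes were tight (101.6 ± 2.63 and 87.7 ± 1.91 CPM, SD, n = 3; adjusted p = 0.0221). The call was lost without WT 1, WT 2, WT 3 or KO 2, with adjusted p up to 0.101, and without both WT 1 and KO 2 (0.162).

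Ifit1 differed more between genotypes than Ifit2 and also more within them. It had 90.0, 94.3 and 58.2 CPM in WT 1 to 3 and 62.4, 57.0 and 37.6 CPM in KO 1 to 3. WT 3 fell within the KO range, and the log2 fold change of -0.64 (95% interval from -1.08 to -0.19) had an adjusted p of 0.0978. Ifit1 had an adjusted p under 0.05 without WT 3 or with no filter on low counts. Ifit3 and Ifit3b had log2 fold changes of -0.37 and -0.38 (adjusted p = 0.256 and 0.357). They share 51.2% and 45.0% of their 50-base words with other genes, almost all with each other, so their counts are not separate measurements.

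Both MX genes, GTPases that trap viral ribonucleoproteins, had lower values in every KO library than in any WT library. Mx1 (ENSMUSG00000000386, chr16:97447035-97462907, minus strand) had 28.5, 35.6 and 19.97 CPM in WT 1 to 3 and 17.2, 16.7 and 14.5 CPM in KO 1 to 3. WT 3 lay near the KO libraries and WT 2 far above them. The log2 fold change of Mx1 was -0.81 ± 0.17 (SE; adjusted p = 0.0228), and the call was lost without WT 1 (adjusted p = 0.0922), without WT 2 (-0.60, adjusted p = 0.0793), without both WT 1 and KO 2 (0.162) and with robust dispersion (0.0866). Mx2, whose start lies 72.4 kb away, had 12.3, 17.3 and 11.4 CPM against 11.1, 9.91 and 6.58 CPM, a log2 fold change of -0.59 with a 95% interval from -1.05 to -0.13 that did not pass (adjusted p = 0.139). DESeq2 called Mx2 lower (0.0423).

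**Figure D2:**
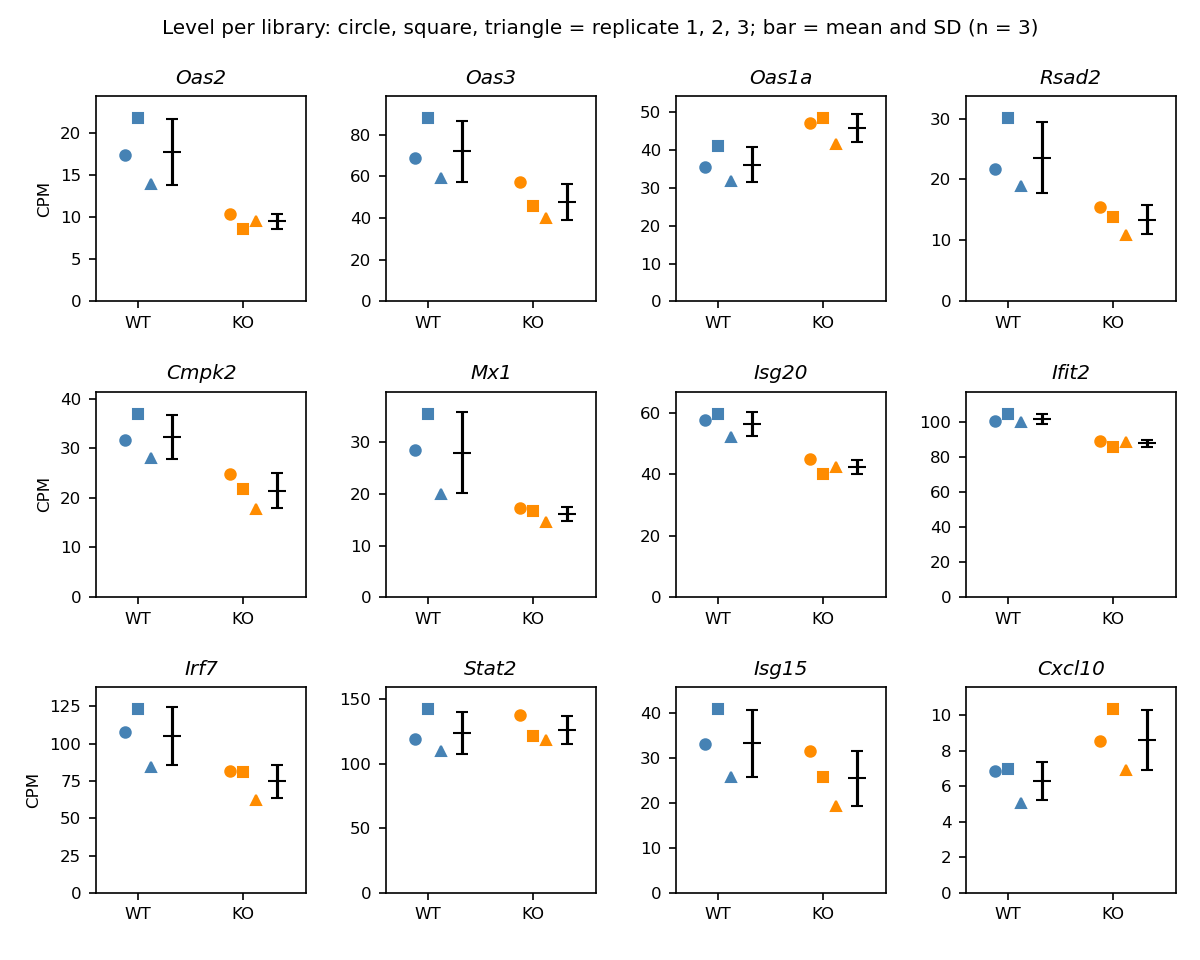
CPM of 12 of the genes in each library, with circles, squares and triangles for replicates 1, 2 and 3 (numbers not treated as pairs of WT and KO) and bars for the mean and SD of 3 libraries. Oas2 is at 14.0 to 21.8 CPM in WT and 8.57 to 10.3 CPM in KO, Oas1a is higher on average in KO, and Stat2 overlaps between the genotypes.

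Rsad2 and Cmpk2 lie next to each other in opposite orientation, 12.8 kb between their starts, and both fell. Rsad2 (ENSMUSG00000020641, chr12:26442746-26456452, minus strand), the radical SAM enzyme viperin, had 21.7, 30.1 and 19.0 CPM in WT 1 to 3 and 15.5, 13.9 and 10.8 CPM in KO 1 to 3. Its log2 fold change was -0.83 ± 0.18 (SE; adjusted p = 0.0218). Cmpk2 (ENSMUSG00000020638, chr12:26469204-26479837, plus strand), a mitochondrial nucleotide kinase, had 31.8, 37.0 and 28.0 CPM in WT 1 to 3 and 24.7, 21.8 and 17.8 CPM in KO 1 to 3. Its log2 fold change was -0.60 ± 0.13 (SE; adjusted p = 0.0246). In both genes WT 2 was the highest library and KO 3 the lowest. Both calls were lost without WT 1 (adjusted p = 0.0631 for Rsad2 and 0.0828 for Cmpk2), without WT 2 (0.0753 and 0.105) and without both WT 1 and KO 2 (0.118 and 0.150). Robust dispersion also ended the call of Rsad2 (0.0662).

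Isg20 (ENSMUSG00000039236, chr7:78913424-78920396, plus strand), an exonuclease of single-stranded RNA, had 57.4, 59.6 and 52.0 CPM in WT 1 to 3 and 44.8, 40.1 and 42.3 CPM in KO 1 to 3. The libraries of each genotype were close together and clearly apart from the other genotype. The log2 fold change was -0.42 ± 0.07 (SE) with an adjusted p of 0.00805, the smallest among the 31 genes. The call held with any 1 library left out, with adjusted p up to 0.048, and was lost without the 2 libraries lacking Y-linked reads (-0.37, adjusted p = 0.0877).

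The other 8 antiviral effectors did not pass the test. Ifi44 had the largest difference among them, a log2 fold change of -0.60 with a 95% interval from -1.11 to -0.08, at a mean of 6.92 CPM in WT and 4.64 CPM in KO (adjusted p = 0.181). Bst2 (tetherin, which holds budding virions at the membrane) and Rtp4 had log2 fold changes of -0.20 and -0.22 with intervals that included 0. Xaf1, Trim30a, Phf11b and Parp14 had log2 fold changes between -0.07 and 0.00. Ifi27l2a had the highest level per exon length of all 31 genes, 620 CPM per kb in WT and 645 in KO, and its log2 fold change of 0.05 had a narrow interval, from -0.06 to 0.16.

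The STAT/IRF factors, which carry the interferon signal to the DNA, gave no call, and they differed from each other. Irf7, the factor that amplifies interferon production, had 108.2, 123.0 and 84.2 CPM in WT 1 to 3 and 81.4, 80.8 and 62.0 CPM in KO 1 to 3. The genotypes did not overlap, yet the log2 fold change of -0.50 (95% interval from -0.80 to -0.20) missed the threshold with an adjusted p of 0.0572. Limma-voom with sample weights and the edgeR fit without WT 3 called Irf7 lower. Stat2 had 119, 142 and 110 CPM in WT 1 to 3 and 138, 122 and 118 CPM in KO 1 to 3, a log2 fold change of 0.01 with an interval from -0.20 to 0.22. Irf9, the DNA-binding subunit of ISGF3, had a log2 fold change of 0.12 with an interval from -0.03 to 0.26 (adjusted p = 0.354).

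The sensors gave no call. Ifih1 (MDA5, a sensor of long double-stranded RNA) had a log2 fold change of -0.38 with a 95% interval from -0.66 to -0.10 (adjusted p = 0.117). Ddx58 (RIG-I, a sensor of RNA ends) had -0.23 with an interval from -0.42 to -0.04 (adjusted p = 0.159). Zbp1, a sensor of nucleic acids in the Z conformation, had -0.08 with an interval from -0.26 to 0.10. DESeq2 called Ifih1 lower.

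In the ISG15 system, Isg15 itself, a ubiquitin-like modifier, had 33.1, 40.8 and 25.7 CPM in WT 1 to 3 and 31.5, 25.7 and 19.2 CPM in KO 1 to 3. KO 1 lay within the WT range, and the log2 fold change of -0.40 (95% interval from -0.82 to 0.03) did not pass (adjusted p = 0.279). Usp18, the protease that removes ISG15 and dampens the receptor, had a log2 fold change of -0.19 with an interval from -0.50 to 0.13.

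Cxcl10, a chemokine that attracts CXCR3-bearing T cells, had 6.88, 6.99 and 5.07 CPM in WT 1 to 3 and 8.55, 10.3 and 6.93 CPM in KO 1 to 3. Its log2 fold change of 0.43 was the highest of the 31, with a 95% interval from 0.04 to 0.82 (adjusted p = 0.199). With the Y-linked share as a covariate Cxcl10 was called higher (0.57, adjusted p = 0.0364). Exons of Art3 on the opposite strand overlap 133 bases of its exons, and Art3 had 161 reads in all libraries together against 902 for Cxcl10.

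The genes with low levels accounted for most of the calls. Of the 15 genes below the median level of 20.7 CPM per kb, 5 fell and the median log2 fold change was -0.59. Of the 16 at or above it, 2 fell (Isg20 and Ifit2) and the median was -0.14.

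The 31 genes varied in common between libraries of the same genotype. WT 2 was the highest of the WT libraries for 29 of the 31 genes and the highest of all 6 libraries for 25. WT 3 was the lowest of the WT libraries for 29. Among the KO libraries, KO 1 was the highest for 27 genes and KO 3 the lowest for 23. The median log2 deviation of the 31 genes from the WT mean was -0.02, 0.24 and -0.23 in WT 1 to 3 and -0.08, -0.28 and -0.37 in KO 1 to 3, so WT 3 had a lower median than KO 1. Over all genes with reads in every library the same median was within 0.0024 of 0 in each library.

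**Figure D3:**
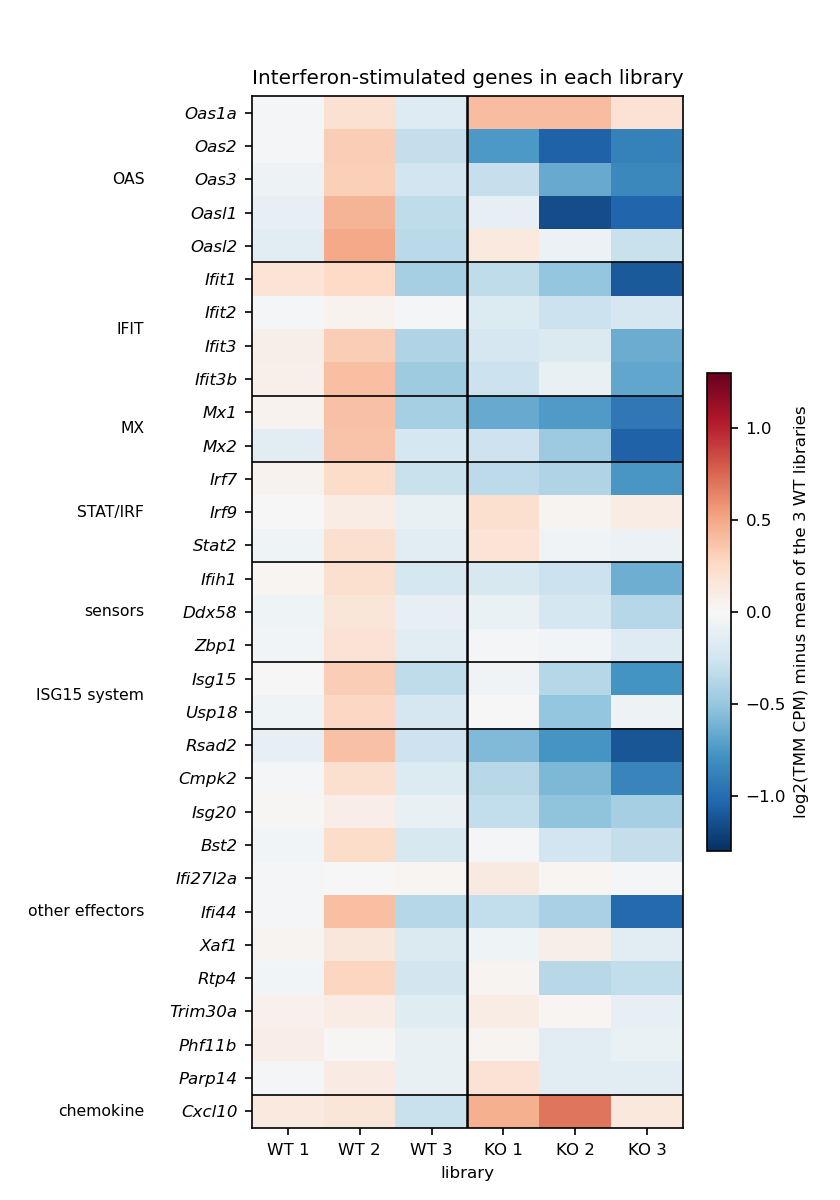
Colour shows log2 of TMM-scaled CPM minus the mean of the 3 WT libraries, for each of the 31 genes (vertical axis, by family) in each library (horizontal axis). WT 2 is the highest WT library for 29 genes and WT 3 the lowest WT library for 29, and KO 3 is the lowest of all 6 libraries for 16.

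The spread within a genotype was wide compared with other genes. WT 2 exceeded WT 3 in 30 of the 31 genes with a median difference of 0.45 on the log2 scale, and KO 1 exceeded KO 3 in all 31 with a median difference of 0.33. Over the 13574 genes with reads in every library, WT 2 exceeded WT 3 in 6710 and KO 1 exceeded KO 3 in 7011. The median range within WT was 0.45 for the 31 genes and 0.18 for all genes, and within KO it was 0.40 and 0.22. The WT range was larger than the genotype difference for 25 of the 31 genes and for 9267 of the 13574. The exceptions among the 31 were Oas2, Oas3, Ifit2, Rsad2, Cmpk2 and Isg20. Summed over the 31 genes, WT 1 to 3 had 2709, 2994 and 2407 CPM and KO 1 to 3 had 2690, 2463 and 2306 CPM, which overlap.

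The number of calls depended on which libraries were kept. It was 2 without WT 1 (Oas2 and Isg20), 3 without WT 2 (Oas2 and Isg20 lower, Oas1a higher) and 5 without KO 2, and 8 without WT 3 or KO 1. Without both WT 1 and KO 2, an alternative chosen after seeing the data that leaves 2 libraries a genotype, edgeR called none of the 31 and 186 of all genes. In that fit 11 of the 31 had an unadjusted p under 0.05, none of them higher in KO, against 2078 of 13799 genes tested, 990 of them higher, and the median log2 fold change was -0.26. Oas2 and Isg20 passed in 19 of the 20 alternatives.

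**Figure D4:**
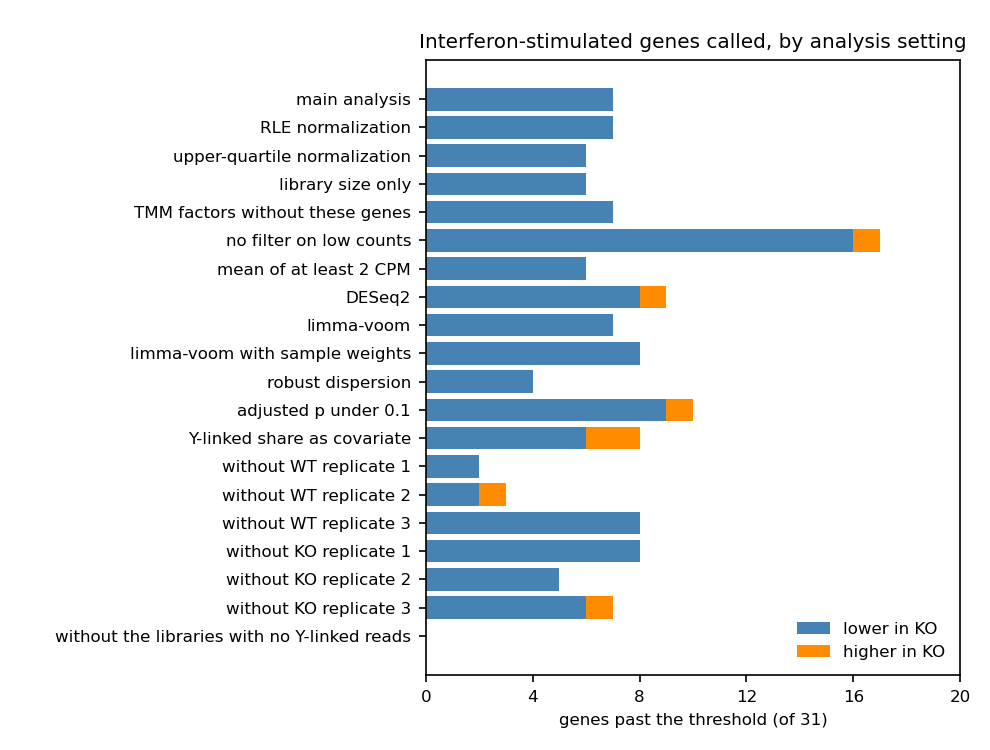
Number of the 31 genes past the threshold (horizontal axis, bars from 0), lower or higher in KO, under the main analysis and each alternative setting without a replicate block. The count is 7 in the main analysis, 17 with no filter on low counts, 2 without WT 1 and 0 without the libraries lacking Y-linked reads.

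The other genes of the pathway were counted from lists. Of 21 interferon genes themselves (type I, with the type II and III genes), 17 had 0 reads in every library, and the highest count in any library was 30, for Ifng. Only Ifng had enough reads to be tested. It had between 0.771 and 1.33 CPM, and its log2 fold change was 0.05, interval from -0.66 to 0.77. Neither edgeR, DESeq2 nor limma-voom called it, and its unadjusted p was above 0.05 by all 3.

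Among 22 tested genes of the receptors and signalling, 2 fell and 1 rose, where 3.20% of all genes tested fell and 3.25% rose. An unadjusted p under 0.05 was found for 12 of the 22, against 2780 of all 13602 genes. Irf5, a factor that acts downstream of Toll-like receptors, had 29.2, 28.2 and 28.6 CPM in WT 1 to 3 and 21.4, 22.2 and 22.3 CPM in KO 1 to 3 (-0.39 ± 0.06, SE; adjusted p = 0.00731). Socs3, an inhibitor of JAK signalling, fell by 0.31 on the log2 scale (adjusted p = 0.0153). Ifngr1, a chain of the type II interferon receptor, rose by 0.24 (adjusted p = 0.0353), a call lost with any of 5 single libraries left out (adjusted p up to 0.136). Irf5 kept its call with any 1 library left out, and Socs3 lost it without WT 2 (0.0682). Without both WT 1 and KO 2 none of these 3 passed (0.0815 for Irf5, 0.0877 for Socs3 and 0.145 for Ifngr1).

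The receptor chains and 2 further IRF factors had means that were higher in KO without passing the test. Ifnar1 had 237, 244 and 233 CPM in WT 1 to 3 and 258, 287 and 255 CPM in KO 1 to 3 (0.15, adjusted p = 0.130). The log2 fold changes were 0.09 for Ifnar2 (adjusted p = 0.347), 0.18 for Irf1 (0.0790) and 0.29 for Irf8 (0.0783). DESeq2 called Irf1 higher (0.0354), as did the fit without KO 2 (0.0339), and Irf8 was called higher with the Y-linked covariate (0.0101) and without KO 3 (0.0182). In the whole receptors and signalling list, 9 of 22 log2 fold changes were under 0.

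None of 21 tested genes of the upstream sensing pathways was called by edgeR, DESeq2 or limma-voom, and 5 had an unadjusted p under 0.05 by edgeR, a share near that of all genes (2780 of 13602). Tlr3, a sensor of double-stranded RNA, had the smallest p, with 0.285 to 0.716 CPM in WT and 1.02 to 1.29 CPM in KO (log2 fold change 1.17, adjusted p = 0.0952).

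Of 68 further interferon-stimulated genes that were tested, 7 fell and 1 rose, where 3.20% of all genes tested fell and 3.25% rose. An unadjusted p under 0.05 was found for 26 of the 68 (2780 of 13602 over all genes), and their median log2 fold change as a list of 68 was -0.06. Gm4951, a predicted interferon-inducible GTPase, had 10.1, 11.6 and 9.49 CPM in WT 1 to 3 and 5.56, 3.87 and 5.33 CPM in KO 1 to 3 (-1.09 ± 0.16, SE; adjusted p = 0.00433). Its call held under each of the 20 alternatives. Ifi214, of the family of DNA-binding PYHIN proteins, fell by 0.51 on the log2 scale (adjusted p = 0.0116), Epsti1 by 0.27 (0.0168), Tor1aip1 by 0.24 (0.0205) and Phf11c by 0.36 (0.0217). Ms4a4b, a membrane protein of T cells, rose by 0.22 (adjusted p = 0.0374). These 5 calls each lost significance without WT 1 and without WT 2, with adjusted p up to 0.147. Epsti1 and Tor1aip1 also lost theirs without WT 3, and Phf11c without KO 2. The call of Ms4a4b was lost with any 1 library left out (adjusted p from 0.0541 to 0.147) and with a replicate block (0.0654). Without both WT 1 and KO 2 none of the 5 passed (0.0778 for Tor1aip1 to 0.252 for Ms4a4b). DESeq2 called 15 of the 68 genes, 14 lower and 1 higher, against 1010 of all 13602 genes, 519 lower and 491 higher.

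Markers of other cells that express interferon-stimulated genes were summed beside these results. Plasmacytoid dendritic cell markers, 11 genes of which 6 were tested, 2 called lower and 1 higher, summed to between 258 and 320 CPM in WT and between 201 and 234 CPM in KO. Ccr9 (log2 fold change -1.44) and Pacsin1 (-0.43) were the 2 lower genes, and Runx2 (0.35, adjusted p = 0.0229) was the higher one. Bst2, 1 of the 31 genes, is also in that list. Its log2 fold change was -0.20, and those of Tcf4 and Ly6d were 0.40 and 0.88, without passing the test. The defining marker Siglech had at most 1 read in any library. Monocyte and macrophage markers, of which 1 of 11 was called (Cybb, lower), summed to between 102 and 124 CPM in WT and to 106, 171 and 51.1 CPM in KO 1 to 3. Cybb made up 56.3 to 73.8 CPM of the WT sums. The other 10 markers had log2 fold changes from 0.26 to 0.81 without passing the test (0.76 for Csf1r, 0.81 for Adgre1 and 0.80 for C1qa). The KO libraries differed in direction for Csf1r, Adgre1 and C1qa. These 3 were above every WT library in KO 1 and KO 2 (52.8, 16.1 and 21.7 CPM in KO 2). In KO 3 they were below every WT library (7.38, 1.78 and 3.02 CPM). The macrophage sum was highest in KO 2 and lowest in KO 3. Among the KO libraries, the median of the 31 genes was highest in KO 1 and lowest in KO 3. Conventional dendritic cell markers, 8 genes of which 3 were tested and 0 called by edgeR (2, both higher, at an unadjusted p under 0.05), summed to between 40.3 and 45.4 CPM in WT and between 49.4 and 76.4 CPM in KO, mostly from Cd74, and Clec9a had at most 2 reads in any library. B cell markers summed to between 1384 and 1696 CPM in WT and between 1382 and 1586 CPM in KO, and neutrophil markers to at most 1.19 CPM. The part of these cells in the interferon-stimulated genes was not tested.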

How the data were processed

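The authors deposited 1 table of unnormalized counts of reads, with Ensembl genes in rows and libraries in columns. Per the submitters' processing notes, the build was mm10 and the tools were HISAT2 2.1.0, fastp 0.23.2, DESeq2 1.34.0 and Picard. The counter, strand setting and annotation: not given in the sources used here. Without strand, a gene and an overlapping antisense gene could share reads.

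CPM were computed from library totals. Genes were kept by filterByExpr (minimum count 10, minimum total 15), scaled by TMM and tested for genotype with edgeR's quasi-likelihood test (edgeR 4.0.16, R 4.3.3), unblocked, with Benjamini-Hochberg adjustment over 13602 genes and a threshold of 0.05. Intervals (95%) are unadjusted. Levels per kb use GENCODE M21 exon lengths, and shared 50-base words its transcripts. No 2 libraries of a genotype agreed within sampling noise (chi-square per degree of freedom at least 5.03). The scripts were tested on simulated counts.

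Alternatives tried were scaling by library size, RLE or upper quartile, TMM factors without the 31 genes, no filter, a mean of at least 2 CPM, DESeq2 1.42.0, limma-voom (limma 3.58.1) with and without sample weights, robust dispersion, an adjusted p under 0.1, a replicate block, the Y-linked share as a covariate and each library left out. The fit without WT 1 and KO 2 was added after seeing the data. The genes and lists were chosen with earlier results of these data known. Named genes are Smarcd2, all 31 genes, up to 6 called genes per pathway list by adjusted p (or the smallest p where none was called), Irf1, Ifnar1, Ifnar2, Irf8, Ifng and 4 Treg markers. Ikzf2, Xist, Oas1b, Oas1c, Oas1g, Art3, Ccr9, Pacsin1, Runx2, Tcf4, Ly6d, Siglech, Cybb, Csf1r, Adgre1, C1qa, Cd74 and Clec9a were named after their values were seen. A result that the rule names is not reported here.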

Additional observations from a re-analysis of the deposited data

How the results depend on the processing

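Every one of the 7 falls kept its direction under all 20 alternatives. Of all genes, 877 were called, 1624 with no filter on low counts, 1355 at an adjusted p under 0.1, 344 to 848 with 1 library left out (344 without WT 1 or WT 2, 556 without WT 3) and 186 without WT 1 and KO 2. Of the 31 genes, 7 were called, 17 with no filter (16 lower, 1 higher), 4 with robust dispersion, 2 to 8 with 1 library left out and 0 without WT 1 and KO 2. The receptors and signalling list had 3 calls, 5 with no filter, 5 at an adjusted p under 0.1, 1 to 4 with 1 library left out and 0 without WT 1 and KO 2 (9 at an unadjusted p under 0.05). Upstream sensing had 0 calls, 2 with no filter and 1 at an adjusted p under 0.1. The further interferon-stimulated genes had 8 calls, 19 with no filter, 15 with DESeq2, 15 at an adjusted p under 0.1, 1 to 11 with 1 library left out and 1 without WT 1 and KO 2. The cause of these shifts was not tested. Fits that leave out libraries also have fewer samples.

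The replicate numbers gave no clear sign of pairing the libraries: deviations of same-numbered libraries had correlations of -0.183, -0.0211 and 0.177. These correlations cannot exclude a pairing, because the deviations of the 3 libraries of a genotype sum to 0. Between differently numbered libraries the highest was 0.2725, for WT 1 with KO 2, the libraries without Y-linked reads. The lowest was -0.2588, for WT 3 with KO 2. With the replicate number as a block, 738 genes, 11 of the 31 (10 lower, 1 higher) and 14 of the further list were called.

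Log2 fold changes of some genes that were not called turned sign. Without WT 1 and KO 2, Phf11b had 0.014, Parp14 0.0091 and Cd4 0.0059. With the Y-linked covariate, Xaf1 had 0.019 and Ifng -0.20. Trim30a had -0.0050 with no filter, and Cd4 had 0.0057 with upper-quartile and 0.0019 with library-size scaling. With 1 library left out, the ranges were -0.29 to 0.17 for Oasl2, -0.069 to 0.12 for Stat2, -0.15 to 0.018 for Zbp1, -0.14 to 0.031 for Xaf1, -0.073 to 0.059 for Trim30a, -0.15 to 0.024 for Parp14, -0.14 to 0.23 for Ifng and -0.030 to 0.017 for Cd4.

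The precision is limited by 3 libraries a genotype and by the common spread of these genes within each genotype. Shared reads make Oas1a, Ifit3, Ifit3b and Phf11b uncertain. No source used here gives the sex, mouse or batch of a library.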
